A study of Mus musculus with 6 samples.

Results

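Osteopontin (Spp1) and the genes of lipid-associated macrophages were examined in peritoneal macrophages (PEMs) that lacked Tim-4, across 10 genes of the 15415 listed in the deposited table. The 10 genes were Spp1, Gpnmb, Trem2, Tyrobp, Apoe, Fabp5, Lgals3, Cd9, Ctsk and Acp5. They were chosen because Spp1 had shown the largest increase in these libraries and because an osteoclast signalling term had led the pathways. Their difference between the groups had therefore been used to choose them, so their values, and whether the fit across all genes put them past its threshold, are given below only as a description and support nothing by themselves. All 10 genes passed the filter on low values, a mean of at least 1 FPKM in one group, and were among the 9030 genes fitted. FPKM scales the reads of a gene to its length and to the size of the library, so levels given in FPKM may be compared between genes.

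Lipid-associated macrophages are macrophages that take up lipid and cell debris and turn on a shared set of genes for lipid sensing, transport and lysosomal breakdown. They have been described in adipose tissue, fatty liver, atherosclerotic plaques and the injured brain. At the cell surface the receptor TREM2 binds lipids and lipoproteins, among them those that carry apolipoprotein E, and signals through the adaptor TYROBP (DAP12). Several genes of the same set are also known from osteoclasts, the bone-resorbing cells of the macrophage lineage, in which osteopontin, cathepsin K and tartrate-resistant acid phosphatase act on the bone matrix. Tim-4, encoded by Timd4, is a phosphatidylserine receptor with which resident peritoneal macrophages bind apoptotic cells.

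The 6 RNA libraries were made from PEMs of LysM-Cre; Tim-4 fl/fl animals (knockout libraries 1 to 3) and of Tim-4 fl/fl animals without Cre (control libraries 1 to 3). Each group had 3 libraries, and values are given below in this order. All animals thus carried floxed Tim-4 alleles, and the knockout animals also carried Cre in the lysozyme gene Lyz2, which is active in macrophages, monocytes and neutrophils, whereas the controls carried no Cre. The cells were collected after starch had been injected into the peritoneal cavity, and the labels name lps as the treatment of every library. The genotype entry of the labels is reversed against the titles, so the groups were taken from the titles. The study's methods state that young adult male mice were used throughout, and the number of animals per library was not given in the sources used here. Timd4 reached 0.333, 0.394 and 0.246 FPKM across the knockout libraries, against 19.5, 12.0 and 1.19 FPKM across the controls. The direction of Timd4 fitted the titles, but control library 3 stood apart from the other controls. Lyz2, which holds the Cre insertion, had levels of 41.4, 4656 and 106 FPKM in knockout PEMs and of 7090, 7171 and 8482 FPKM in control PEMs, so knockout library 2 stood apart in this gene. Between 36170767 and 42217558 reads per library were recovered from the table, and every member had between 2822 and 831698 reads in every library, so counting error was small beside the spread between libraries. The macrophage markers Cd68 (816 to 1685 FPKM), Csf1r (83.3 to 180 FPKM) and Adgre1, which encodes F4/80 (235 to 364 FPKM), were present in all 6 libraries, whereas Gata6, the defining factor of large resident peritoneal macrophages, reached at most 1.07 FPKM.

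The sequences upstream of the start sites of the 3 members with the largest differences are shown to give the regions from which these transcripts begin. Each runs from 150 bases before the start site to 20 bases from it on, 5′ to 3′ on the plus strand, and was taken from RefSeq on build GRCm38.p6, whereas the submitters' processing notes name mm9 for the expression data. Capitals mark the matches found in a search of both strands.
Spp1, chr5:104434961-104435130: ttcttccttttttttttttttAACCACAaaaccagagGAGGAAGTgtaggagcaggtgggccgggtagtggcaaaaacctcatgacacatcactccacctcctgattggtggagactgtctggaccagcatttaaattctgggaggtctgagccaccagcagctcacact
Gpnmb, chr6:49036368-49036537: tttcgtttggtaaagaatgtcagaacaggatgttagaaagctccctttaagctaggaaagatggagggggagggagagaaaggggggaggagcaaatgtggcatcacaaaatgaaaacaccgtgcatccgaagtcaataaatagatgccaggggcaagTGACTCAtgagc
Trem2, chr17:48346251-48346420: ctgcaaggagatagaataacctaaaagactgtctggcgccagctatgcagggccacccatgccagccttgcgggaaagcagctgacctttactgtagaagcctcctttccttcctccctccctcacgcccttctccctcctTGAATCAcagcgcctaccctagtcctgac
The Spp1 stretch holds a RUNX motif (AACCACA) at positions -129 to -123 and a PU.1 motif (GAGGAAGT) at -113 to -106, counted from the start site. Gpnmb holds an AP-1 motif (TGANTCA) at 9 to 15 and Trem2 holds one at -9 to -3. RUNX and PU.1 proteins are transcription factors of the macrophage and osteoclast lineages, and AP-1 is the dimer of FOS and JUN proteins. Promoter windows of 250 bases before to 50 after the start site were found for 8 of the 10 members (Fabp5 and Tyrobp were not matched), in 13 windows. Among all 32851 windows of this length, AP-1 was found in 7.81%, RUNX in 5.27% and PU.1 in 3.2%. Within the members' windows the RUNX motif occurred again in Gpnmb at -176 to -170, outside the stretch shown. The M-box (TCATGTG, 3.77% of all windows) was found in Acp5 alone. The TATA motif (TATAAA, 13.6%) was found in Spp1 at -211 to -206 and in Apoe at -100 to -95 and -96 to -91. The E-box bound by MITF and TFEB (CACGTG, 7.15%) was found in none of the 13 windows. No motif searched contains another, and a match is a description of the letters only.

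All 10 genes had a higher mean in the knockout libraries, and for 7 of them (Spp1, Gpnmb, Trem2, Apoe, Fabp5, Ctsk and Acp5) every knockout library lay above every control library. The same 7 were past the threshold in the fit of all genes (limma, adjusted p below 0.05), and Lgals3, Cd9 and Tyrobp overlapped between the groups, although after rescaling by the median of ratios Lgals3 and Tyrobp did not, and 9 were then without overlap. In the background, 2.57% of the 9030 genes were past the threshold as higher in the knockout, 4.74% as lower, and 11.1% had every knockout library above every control library. Since the members were chosen on this contrast, nothing is read from their counts against this background. The median log2 difference of the members was 1.22, and that of all genes tested was -0.11. Rescaling by the median of ratios brought the median of all genes to 0.02 and that of the members to 1.37, and again 7 were past the threshold. Their summed level was 13179, 14862 and 11896 FPKM in knockout libraries 1 to 3 and 4976, 5161 and 7063 FPKM in control libraries 1 to 3. Measured in reads, they took 2.67% to 3.38% of a knockout library and 0.998% to 1.44% of a control library. The number past the threshold was 1 (Spp1) without knockout library 1, 3 (Spp1, Trem2 and Apoe) without knockout library 2 and 0 without control library 2, where 8 had an unadjusted p below 0.05 in limma. It was 8, with Lgals3 added, without control library 3. In bulk RNA, fewer cells of a type and less RNA per cell cannot be told apart.

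**Figure D1:**
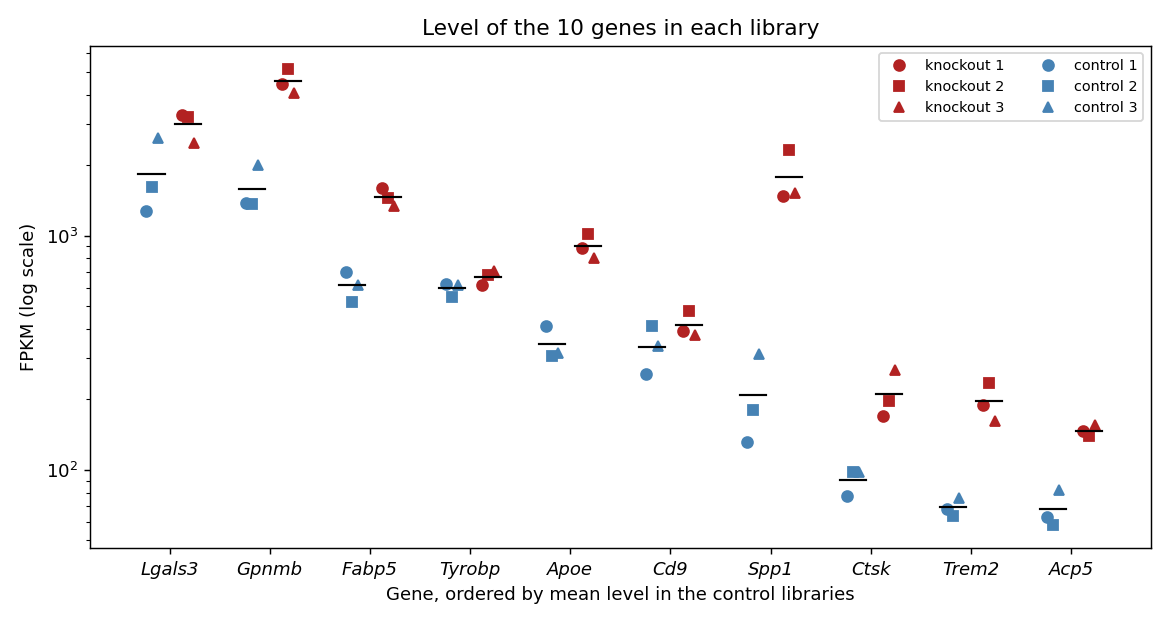
Level of each of the 10 genes in each library, in FPKM on a log scale, with knockout libraries in red, control libraries in blue and a black line at each group mean. Spp1 lies at 1476 to 2310 FPKM in the knockout libraries against 132 to 312 FPKM in the controls, while the points of Lgals3, Cd9 and Tyrobp overlap.

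Spp1 (Entrez gene 20750) encodes osteopontin, a secreted phosphoprotein that binds integrins and CD44 and acts both as a matrix protein and as a cytokine. It measured 1476, 2310 and 1527 FPKM with the knockout and 132, 180 and 312 FPKM in the controls. The lowest knockout library was thus well above the highest control library, and knockout library 2 stood above the other two. The means were 1771 ± 468 and 208 ± 93.0 FPKM (SD, n = 3 each), an 8.51-fold ratio, and the log2 difference was 3.14 with a standard error (SE) of 0.33 (95% interval 2.38 to 3.91). The difference was 3.48 without control library 3 and 2.94 without knockout library 2, the libraries that stood apart in Timd4 and Lyz2. Over all alternatives it lay between 2.86 and 3.48. Ranked by level among all listed genes, Spp1 was 33rd, 24th and 33rd in the knockout libraries and 504th, 368th and 210th in the controls.

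Apoe (11816) encodes apolipoprotein E, the lipoprotein component that carries cholesterol out of macrophages and is a ligand of TREM2. It reached 887, 1016 and 801 FPKM across the knockout libraries, against 410, 307 and 316 FPKM across the controls. The groups did not overlap, and control library 1, not 3, was the highest control. The means were 901 ± 108 and 344 ± 57.3 FPKM (SD, n = 3 each), a 2.62-fold ratio, with a log2 difference of 1.39 (SE 0.16).

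Lgals3 (16854) encodes galectin-3, a lectin that binds galactosides on glycoproteins and is recruited to damaged lysosomes. It had levels of 3285, 3203 and 2485 FPKM in knockout PEMs and of 1274, 1607 and 2613 FPKM in control PEMs. Control library 3 exceeded knockout library 3, so the groups overlapped. The means were 2991 ± 440 and 1831 ± 697 FPKM (SD, n = 3 each), a 1.63-fold ratio, and the log2 difference was 0.76 (SE 0.27), or 1.05 without control library 3.

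Trem2 (83433), the lipid receptor of these cells, measured 190, 235 and 162 FPKM with the knockout and 68.2, 63.2 and 76.0 FPKM in the controls. The controls lay close together, with a coefficient of variation of 9.29% against 18.8% in the knockout, and the groups did not overlap. The means were 196 ± 36.8 and 69.2 ± 6.42 FPKM (SD, n = 3 each), a 2.83-fold ratio, with a log2 difference of 1.47 (SE 0.17). Tyrobp (22177), the adaptor through which TREM2 signals, reached 615, 680 and 708 FPKM across the knockout libraries, against 619, 549 and 616 FPKM across the controls. Knockout library 1 lay below control libraries 1 and 3, so the groups overlapped. The means were 668 ± 47.6 and 595 ± 39.6 FPKM (SD, n = 3 each), a 1.12-fold ratio, and the log2 difference was 0.17 (95% interval -0.13 to 0.46). The receptor and its adaptor thus differed in their ratio. Trem2 stood at 0.309, 0.345 and 0.229 of the Tyrobp level in the knockout libraries and at 0.11, 0.115 and 0.123 in the controls.

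Gpnmb (93695) encodes a transmembrane glycoprotein of lysosomes and the cell surface and is a well-known target of the MiT/TFE transcription factors. It had levels of 4427, 5153 and 4071 FPKM in knockout PEMs and of 1375, 1364 and 1994 FPKM in control PEMs. It was the highest member in every knockout library, and control library 3 was the highest control. The means were 4550 ± 551 and 1578 ± 361 FPKM (SD, n = 3 each), a 2.88-fold ratio, with a log2 difference of 1.54 (SE 0.19). In reads, Gpnmb alone took 1.69%, 1.97% and 1.56% of the knockout libraries and 0.526%, 0.522% and 0.762% of the control libraries. It ranked 7th, 6th and 10th among all listed genes in the knockout and 40th, 33rd and 24th in the controls.

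Cd9 (12527) encodes a tetraspanin, a membrane scaffold protein used to sort lipid-associated macrophages. It measured 392, 477 and 378 FPKM with the knockout and 256, 411 and 339 FPKM in the controls. Control library 2 exceeded knockout libraries 1 and 3, and the log2 difference was 0.33 (95% interval -0.14 to 0.79). Fabp5 (16592) encodes a fatty acid binding protein that ferries fatty acids within the cell. It reached 1590, 1452 and 1340 FPKM across the knockout libraries, against 702, 523 and 617 FPKM across the controls. The groups did not overlap, and knockout library 1 was the highest. The means were 1461 ± 125 and 614 ± 89.2 FPKM (SD, n = 3 each), a 2.38-fold ratio, with a log2 difference of 1.26 (SE 0.15). Both genes have pseudogene copies of similar sequence, and how reads shared with them were counted was not given in the sources used here.

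Ctsk (13038) encodes cathepsin K, the cysteine protease with which osteoclasts degrade collagen. It had levels of 170, 196 and 267 FPKM in knockout PEMs and of 77.4, 97.6 and 97.5 FPKM in control PEMs. The groups did not overlap, and knockout library 3 was the highest. The means were 211 ± 50.4 and 90.8 ± 11.6 FPKM (SD, n = 3 each), a 2.32-fold ratio, with a log2 difference of 1.19 (SE 0.2). Acp5 (11433) encodes tartrate-resistant acid phosphatase, the classical stain of osteoclasts, which also dephosphorylates osteopontin. It measured 146, 140 and 156 FPKM with the knockout and 63.0, 57.9 and 82.4 FPKM in the controls. The knockout libraries varied least here among all members, with a coefficient of variation of 5.51%. The means were 147 ± 8.11 and 67.8 ± 12.9 FPKM (SD, n = 3 each), a 2.17-fold ratio, with a log2 difference of 1.12 (SE 0.16).

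**Figure D2:**
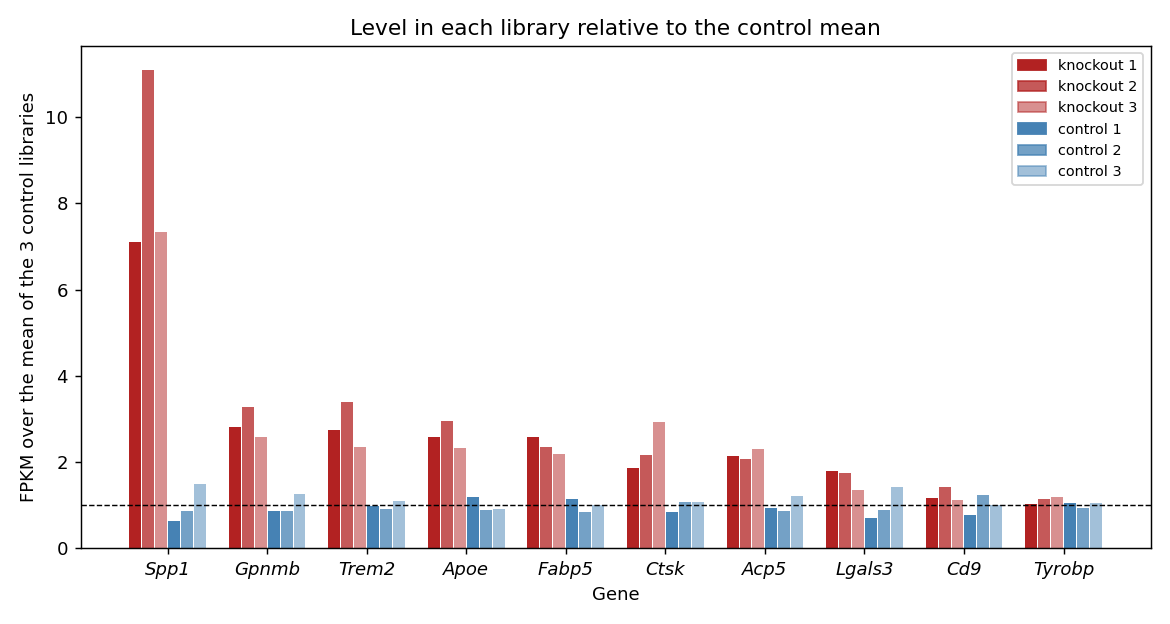
Level of each gene in each library divided by its mean over the 3 control libraries, on a linear axis from 0, with a dashed line at a ratio of 1. Spp1 reaches 7.1, 11.1 and 7.34 in knockout libraries 1 to 3, Gpnmb 2.81, 3.27 and 2.58, and Tyrobp 1.03, 1.14 and 1.19.

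The members did not follow a common order across the knockout libraries. Knockout library 2 was the highest for 5 of them (Spp1, Gpnmb, Trem2, Apoe and Cd9), knockout library 3 for 3 (Tyrobp, Ctsk and Acp5) and knockout library 1 for 2 (Fabp5 and Lgals3). Knockout library 3 was at the same time the lowest for 6 members. Ctsk thus had another highest library than Spp1 and Gpnmb, while the knockout libraries differed little in Acp5. Relative to the control mean, Ctsk stood at 1.87, 2.16 and 2.94 and Acp5 at 2.15, 2.06 and 2.3 in knockout libraries 1 to 3, whereas Trem2 stood at 2.75, 3.4 and 2.34. Among the controls, library 3 was the highest for 5 members (Spp1, Gpnmb, Trem2, Lgals3 and Acp5) and the lowest for none.

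By mean level the order in the knockout was Gpnmb, Lgals3, Spp1, Fabp5, Apoe, Tyrobp, Cd9, Ctsk, Trem2 and Acp5. The ranges of the neighbours Spp1 and Fabp5 overlapped, and so did those of Ctsk and Trem2. In the controls the order was Lgals3, Gpnmb, Fabp5, Tyrobp, Apoe, Cd9, Spp1, Ctsk, Trem2 and Acp5, with overlapping ranges for Lgals3 and Gpnmb, Fabp5 and Tyrobp, Apoe and Cd9, Cd9 and Spp1, and Trem2 and Acp5. Spp1 moved from place 7 to place 3, while Ctsk, Trem2 and Acp5 kept the last places in both groups. The ratio of Spp1 to Gpnmb was 0.333, 0.448 and 0.375 in the knockout libraries and 0.096, 0.132 and 0.156 in the controls, so Spp1 differed by more than Gpnmb did in every library.

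The genes whose pattern lay nearest to that of Spp1 were found by the distance between log2 levels centred over the 6 libraries, among genes with a mean of at least 5 FPKM. This likeness uses the same contrast and is a description. The nearest was Fcgr1, a high-affinity Fc receptor for IgG, at a distance of 0.36, with 50.2, 57.5 and 36.1 FPKM in the knockout libraries and 5.16, 5.76 and 6.58 FPKM in the controls. Next were the neuropeptide gene Npy (0.53), the follistatin-like gene Fstl1 (0.59), the lysozyme gene Lyz1 (0.61) and Atp6v0d2 (0.62), which encodes a proton pump subunit of osteoclasts and macrophages. Syngr1 (0.63), the potassium channel gene Kcnn4 (0.66), Mfge8 (0.69), the creatine kinase gene Ckb (0.69) and Mfsd12 (0.71) followed. Mfge8 encodes a secreted bridge between phosphatidylserine on apoptotic cells and integrins, and it stood at 55.2, 63.7 and 85.2 FPKM in the knockout libraries against 15.5, 11.3 and 11.5 FPKM in the controls. None of the other 9 members was among these 10 genes. The distance grows with a gap in the size of the difference, and Gpnmb, the next largest member, differed by 1.54 against 3.14 for Spp1. The absence of the members thus follows from the size of their differences and does not describe their order across libraries. Lyz1 is nearly identical to Lyz2 in sequence, and how reads shared by them were counted was not given in the sources used here.

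Of 26 other genes known from lipid-associated macrophages, all 26 were tested, 7 rose and none fell (limma, adjusted p below 0.05). Their log2 differences were positive in 22 and had a median of 0.56, beside -0.11 over all genes. Those that rose were the lysosomal proteases Ctsl and Ctsb, the cholesterol handling genes Npc2 and Nceh1, the lysosomal phospholipase D family gene Pld3, the galectin gene Lgals1 and Syngr1. Pld3 lost its call after rescaling (adjusted p = 0.0576) and Ctsb with at least 10 reads in every library (adjusted p = 0.075). Ctsl reached 994, 1378 and 1509 FPKM across the knockout libraries, against 466, 523 and 461 FPKM across the controls (log2 difference 1.4, SE 0.18, adjusted p = 0.0113). Syngr1, a vesicle protein gene, was at 12.2, 15.1 and 9.89 FPKM against 1.5, 2.32 and 4.22 FPKM (log2 difference 1.91, SE 0.28, adjusted p = 0.0148). Among those that did not pass, Lpl, the lipoprotein lipase gene, had a log2 difference of 0.34 (adjusted p = 0.604), the scavenger receptor gene Cd36 one of 0.15 (adjusted p = 0.608) and the lipid droplet gene Plin2 one of 0.83 (adjusted p = 0.159), although Plin2 passed without control library 3. The number of list genes past the threshold was 1 without knockout library 1, 0 without knockout library 2, 2 without knockout library 3, 0 without control library 2 and 15 without control library 3, of which 13 rose and 2 fell. With the replicate block 5 rose and 1 fell: Lgals1, Ctsb and Pld3 lost their call, and Axl (higher) and Cst7 (lower) entered. In the fits where none passed, 10 (without knockout library 2) and 12 (without control library 2) had an unadjusted p below 0.05. When no filter on low values was set, 2 list genes passed.

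**Figure D3:**
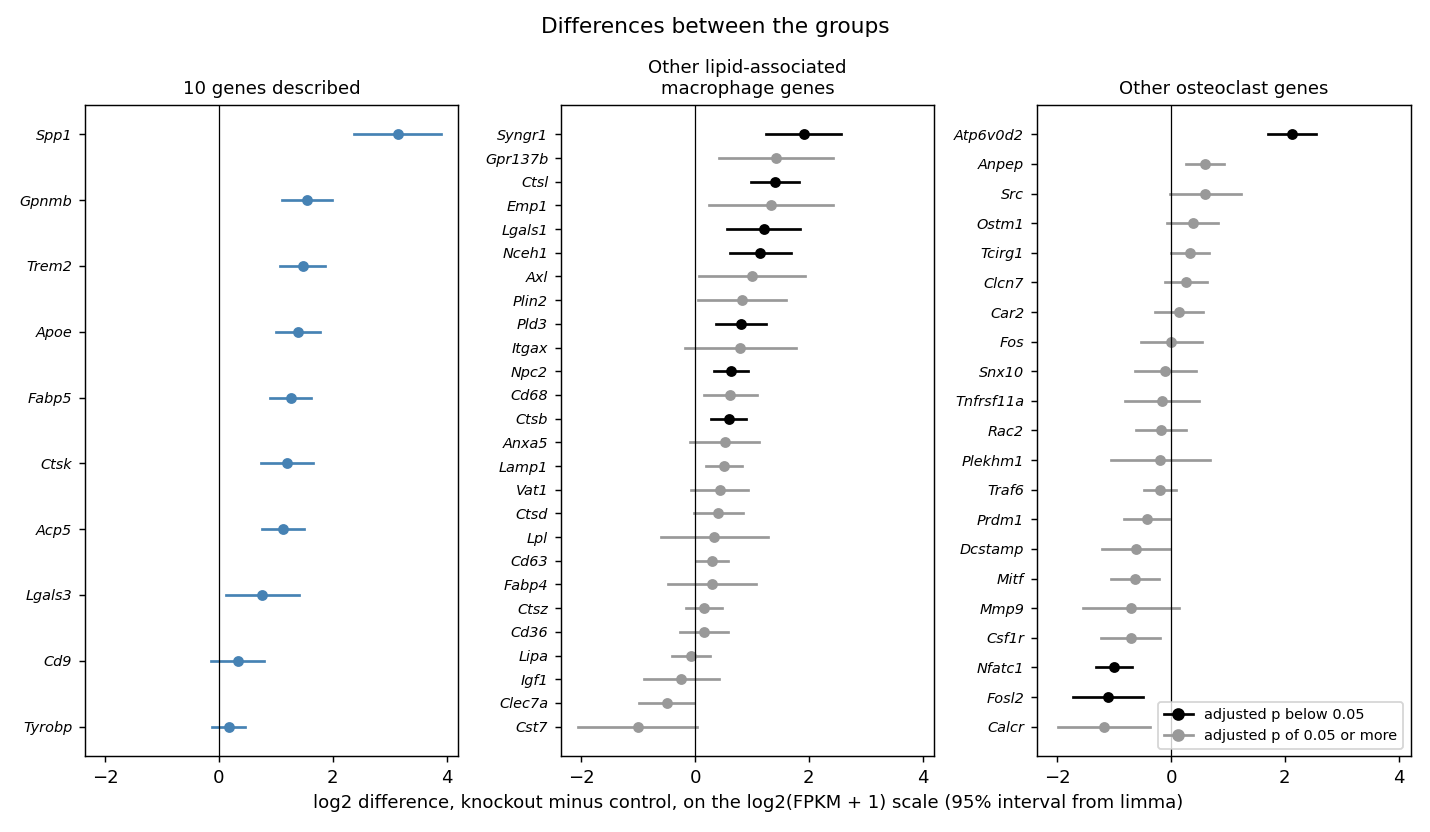
Log2 differences, knockout minus control, on the log2(FPKM + 1) scale with 95% intervals from limma, for the 10 genes, the 26 other genes of lipid-associated macrophages and the 21 tested other genes of osteoclasts, with the 10 genes in blue and the others black where the adjusted p was below 0.05. The points of the 26 lie mostly right of 0, with 7 in black, whereas those of the osteoclast genes lie on both sides, with Atp6v0d2 in black on the right and Nfatc1 and Fosl2 in black on the left.

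The osteoclast genes outside the set differed in both directions. Of 25 such genes, 24 were listed and 21 tested. Of these, 1 rose and 2 fell, near the 2.57% higher and 4.74% lower over all genes, so nothing is read from the count. The median log2 difference was -0.17, beside -0.11 over all genes. Atp6v0d2 rose, from 10.4, 11.3 and 10.8 FPKM in the controls to 45.8, 66.0 and 42.3 FPKM in the knockout libraries (log2 difference 2.12, SE 0.18, adjusted p = 0.00494). Nfatc1, the master transcription factor of osteoclasts, fell, from 4.32, 4.16 and 4.41 FPKM to 1.41, 1.51 and 2.05 FPKM (log2 difference -1.0, SE 0.13, adjusted p = 0.0121). Fosl2, an AP-1 family gene, also fell (log2 difference -1.1, adjusted p = 0.0499), a call that was lost when no filter was set (adjusted p = 0.0819), with at least 10 reads in every library (0.0539) and after rescaling (0.107). The receptor of the osteoclast cytokine RANKL, Tnfrsf11a, had a log2 difference of -0.15 (adjusted p = 0.748), the calcitonin receptor gene Calcr one of -1.18 (adjusted p = 0.0808), and the receptor gene Csf1r one of -0.71 (adjusted p = 0.0903). Without knockout library 1 or 2 the number past the threshold was 1 (Atp6v0d2), without control library 2 it was 0, with 7 at an unadjusted p below 0.05, and without control library 3 it was 6, of which 2 rose and 4 fell.

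The WikiPathways term for osteoclast signalling, which had led to the choice of the set, holds 13 listed genes, of which 9 were tested. Those past the threshold were the members Spp1, Ctsk and Acp5, and the other 6 tested genes, among them Tnfrsf11a, had log2 differences with a median of -0.01. None of the 6 passed the test by limma, by voom on the recovered reads, or at an unadjusted p below 0.05, where the count was again 0 in both, and 1 passed as lower without control library 1 and without control library 3. With other filters, further genes of the term were tested, and Ifnb1 passed as higher when no filter was set and Itgb3 with at least 10 reads in every library. The RANKL gene Tnfsf11 and the osteoprotegerin gene Tnfrsf11b lay below the filter. Of 11 genes for the MiT/TFE transcription factors, which drive lysosomal genes and Gpnmb, and for their regulators, 10 were tested. None rose and 1 fell, beside 2.57% higher and 4.74% lower over all genes, and the median log2 difference was -0.25. Tfec fell, from 32.3, 31.1 and 26.7 FPKM in the controls to 13.5, 9.91 and 10.8 FPKM in the knockout libraries (log2 difference -1.33, SE 0.15, adjusted p = 0.00963). Mitf had a log2 difference of -0.64 (adjusted p = 0.0754), Tfe3 one of -0.39 (adjusted p = 0.234) and Tfeb one of -0.19 (adjusted p = 0.639). Without control library 2 none of the MiT/TFE list passed, with 3 at an unadjusted p below 0.05, without control library 1 there were 3 that fell, and without control library 3 there were 2 that rose and 1 that fell.

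Osteopontin acts on cells through integrins that recognise its RGD motif and through CD44. Of 10 receptor genes, 9 were listed and 7 tested; 1 rose and none fell, with a median log2 difference of 0.17. The integrin subunit gene Itgb5 rose, from 3.63, 3.71 and 4.40 FPKM in the controls to 10.3, 12.1 and 10.2 FPKM in the knockout libraries (log2 difference 1.28, SE 0.13, adjusted p = 0.00651). Cd44 had levels of 193, 184 and 160 FPKM in knockout PEMs and of 140, 162 and 147 FPKM in control PEMs, with overlapping groups (log2 difference 0.25, adjusted p = 0.255). Itgav, whose product pairs with that of Itgb5, had a log2 difference of 0.21 (adjusted p = 0.454). The other osteoclast partner of Itgav, Itgb3, lay near or below the filter at 1.07, 0.759 and 0.545 FPKM with the knockout and 0.128, 0.267 and 0.232 FPKM in the controls and was not among the genes fitted, but it was fitted and passed as higher when genes were kept by at least 10 reads in every library. The call of Itgb5 was lost without knockout library 1 and without control library 2, where the number past the threshold was 0, with 1 and 2 at an unadjusted p below 0.05, and without control library 3 the number was 2, of which 1 rose and 1 fell. Set against its receptor, Spp1 stood at 7.63, 12.6 and 9.55 times the Cd44 level in the knockout libraries and at 0.942, 1.11 and 2.12 times in the controls.

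Downstream of TREM2 and TYROBP, 29 of 30 genes for further TYROBP-coupled receptors, kinases, adaptors and shedding enzymes were tested. None rose and 1 fell, near the 2.57% higher and 4.74% lower over all genes, with a median log2 difference of 0.09. Inpp5d, whose product SHIP1 is a lipid phosphatase that limits signalling through TYROBP, fell, from 8.77, 6.05 and 5.75 FPKM in the controls to 1.64, 1.93 and 3.10 FPKM in the knockout libraries (log2 difference -1.29, SE 0.22, adjusted p = 0.0205). Syk, the kinase that binds phosphorylated TYROBP, measured 79.5, 75.4 and 86.6 FPKM with the knockout and 58.3, 67.0 and 110 FPKM in the controls (log2 difference 0.09, adjusted p = 0.83). With the replicate number as a block, 3 genes of the list passed (Inpp5d and Trem3 as lower, Pik3cd as higher), and after rescaling 1 rose and 1 fell. Without knockout library 1, knockout library 2 or control library 2 none did, with 2 at an unadjusted p below 0.05 in each, and without control library 3 there were 5, of which 3 rose and 2 fell.

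Among 20 genes for receptors of apolipoprotein E and for cholesterol efflux, 17 were tested, 3 rose and 2 fell, and the median log2 difference was 0.17. Nr1h3, which encodes the sterol sensor LXRα, rose, from 4.07, 5.07 and 7.05 FPKM in the controls to 10.4, 13.3 and 10.8 FPKM in the knockout libraries (log2 difference 0.98, SE 0.2, adjusted p = 0.032). Its target Abcg1, a cholesterol exporter gene, rose by 0.57 on the log2 scale (adjusted p = 0.0345), and Npc2, which is also in the list of lipid-associated macrophage genes, rose by 0.64 (adjusted p = 0.0322). Mylip, which encodes a ubiquitin ligase induced by LXR, and Lrp8, an apolipoprotein E receptor gene, fell by 0.84 and 0.99 on the log2 scale (adjusted p = 0.0325 and 0.0113). The exporter gene Abca1 had a log2 difference of 0.37 (adjusted p = 0.451). Without knockout library 1, knockout library 2 or control library 2 no gene of the list passed, with 6 at an unadjusted p below 0.05 in each; without knockout library 3 there were 2 that fell, without control library 3 there were 5 that rose and 3 that fell, and when no filter was set 2 that fell, Lrp8 and Apoc1, while Mylip was lost (adjusted p = 0.0609).

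The other fatty acid binding protein genes varied. Fabp7 fell, from 84.7, 82.7 and 33.8 FPKM in the controls to 5.37, 7.65 and 11.2 FPKM in the knockout libraries (log2 difference -2.85, SE 0.39, adjusted p = 0.0124), and Fabp4 reached 129, 164 and 133 FPKM across the knockout libraries, against 167, 139 and 65.6 FPKM across the controls (log2 difference 0.29, adjusted p = 0.597). The ratio of Fabp5 to Fabp7 was thus 296, 190 and 120 in the knockout libraries and 8.28, 6.33 and 18.3 in the controls. The ratio of Fabp5 to Fabp4 ran from 8.87 to 12.3 with the knockout and was 4.2, 3.76 and 9.41 in the controls, so these groups overlapped, and Fabp3, the heart-type family gene, had a log2 difference of 0.23 (adjusted p = 0.505). Of 14 genes tested for fatty acid binding, peroxisome proliferator receptors and fatty acid use, none rose and 2 fell, with a median of -0.01; the other was Ppard (log2 difference -1.65, adjusted p = 0.0147), a nuclear receptor gene. Pparg, which encodes its adipocyte and macrophage relative, had a log2 difference of 0.77 (adjusted p = 0.0813). Without knockout library 1, knockout library 2 or control library 2 none of these genes passed, with 4 at an unadjusted p below 0.05 in each, without control library 3 there were 5 (3 rose and 2 fell), and after rescaling 4 (2 rose and 2 fell).

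Of 4 tested genes for other galectins and the galectin-3 binding protein (Lgals3bp), Lgals1 rose and all 4 had positive differences. Lgals1 had levels of 894, 997 and 762 FPKM in knockout PEMs and of 297, 312 and 588 FPKM in control PEMs (log2 difference 1.21, SE 0.27, adjusted p = 0.0431). Lgals1 lost its call when any library other than control library 3 was left out, when no filter was set and with the replicate block; the number past the threshold was then 0, with 1 to 3 at an unadjusted p below 0.05, except without control library 1, where Lgals9 passed. The ratio of Lgals3 to Lgals1 was 3.67, 3.21 and 3.26 in the knockout libraries and 4.29, 5.14 and 4.44 in the controls, so galectin-1 transcripts differed by more than those of galectin-3. Of 14 tested genes for other tetraspanins and their immunoglobulin family partners, none passed the test by limma or by voom, where 4 and 2 had an unadjusted p below 0.05, and without control library 3 there was 1 that rose and 2 that fell. Cd63, a lysosomal tetraspanin gene, had a log2 difference of 0.29 (adjusted p = 0.172), and Cd81, the closest relative of Cd9, one of -1.0 (adjusted p = 0.089).

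The genes beside Spp1 in the genome were not past the threshold. Of the 6 tested neighbours (Klhl8, Hsd17b11, Nudt9, Pkd2, Thoc2l and Zfp33b) none passed by limma or by voom, with 3 and 4 at an unadjusted p below 0.05, and the log2 differences ran from -0.39 to 0.54; 2 passed as higher without control library 3 and 2 after rescaling. The nearest to the threshold were Hsd17b11 (log2 difference 0.5, adjusted p = 0.0641) and Nudt9 (0.54, adjusted p = 0.0693).

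Markers of other cells of the peritoneal cavity also differed between the libraries. The summed level of 12 markers of mesothelial cells and fibroblasts was 14.6, 38.7 and 17.3 FPKM in knockout libraries 1 to 3 and 2.16, 7.01 and 16.7 FPKM in control libraries 1 to 3, so the order of the libraries within each group was that of Spp1. Of its 6 tested genes none passed by limma or by voom, with 3 and 4 at an unadjusted p below 0.05, all 6 had positive differences with a median of 0.98, and the highest, Dcn, reached 14.4 FPKM. With the replicate block 3 of them passed, and without control library 3 there were 2. The part of such cells in the level of Spp1 was not tested. Osteoblasts, the bone-forming cells known for osteopontin, had 2 of 8 markers listed, with the highest, Runx2, at 0.889 FPKM.

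The summed markers of B cells, mast cells and neutrophils were higher in every control library than in every knockout library. In the neutrophil sum, S100a8 was the highest gene and the only one called. The 8 B cell markers summed to 2.9 to 5.77 FPKM in the knockout libraries and to 122, 84.2 and 30.2 FPKM in control libraries 1 to 3, and 6 of 6 tested fell. Without knockout library 1 and without control library 2 none of the 6 passed, with 6 at an unadjusted p below 0.05 in each, and without knockout libraries 2 and 3 the numbers were 1 and 3. It was 3 when no filter was set, 4 after rescaling, where Ms4a1 and Pax5 were lost, and 5 by voom, where Ms4a1 was lost. The 8 mast cell markers summed to 1.89 to 2.27 FPKM in the knockout libraries and to 38.2 to 49.3 FPKM in the controls, and 5 of 5 tested fell; of these, Cpa3, Tpsb2, Mcpt4 and Cma1 kept their call whichever library was left out, and Kit lost its call without any single knockout library (adjusted p = 0.108 to 0.18), without control library 2 (0.169), when no filter was set (0.0739) and with the replicate block (0.0538). Of 13 markers of large peritoneal macrophages 9 were tested, and 4 fell (Icam2, Prg4, Alox15 and Vsig4), a number that was 1 without knockout library 1, 2 without knockout library 2, 0 without control library 2, with 5 at an unadjusted p below 0.05, and 8 without control library 3. Their sum was 243, 247 and 374 FPKM in the knockout libraries and 513, 445 and 357 FPKM in the controls, most of it Adgre1. Of 7 tested markers of small peritoneal macrophages and monocytes 2 fell (Irf4 and Plac8) and 3 had positive differences, and their sum was 161 to 172 FPKM in the knockout libraries and 3081, 2183 and 213 FPKM in control libraries 1 to 3. In control libraries 1 and 2 nearly all of this was Chil3 (2991 and 2094 FPKM), and without Chil3 the sum was 92.8 to 116 FPKM in the knockout libraries and 69.0 to 89.9 FPKM in the controls. None of these passed without any single knockout library or without control library 2, with 4 at an unadjusted p below 0.05 in each, and without control library 3 there were 4. With the replicate block 3 fell and 1 rose, and when no filter was set none passed, with 5 at an unadjusted p below 0.05; rescaling and voom left 1 each. Among the controls, library 3 lay nearest to the knockout libraries in the summed B cell markers and in Chil3 (144 FPKM). The same held for Timd4 and Spp1. Control library 3 lay farthest from the knockout libraries in the sum without Chil3, in the summed mast cell markers (49.3 FPKM) and in Lyz2. The neutrophil markers summed to 79.3 to 104 FPKM in the knockout libraries and 183 to 211 FPKM in the controls. S100a8 reached 171 FPKM in a control library, most of the sum there. Of 4 tested neutrophil markers 1 fell in limma, S100a8 (log2 difference -1.58), and 1 had a positive difference (0.46). The call of S100a8 was lost without knockout library 1 (adjusted p = 0.0598) and without control library 2 (adjusted p = 0.0822). Summed markers of T cells and dendritic cells reached at most 3.45 and 11.6 FPKM in any library. The part of these shifts in the differences of the 10 genes was not tested.

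**Figure D4:**
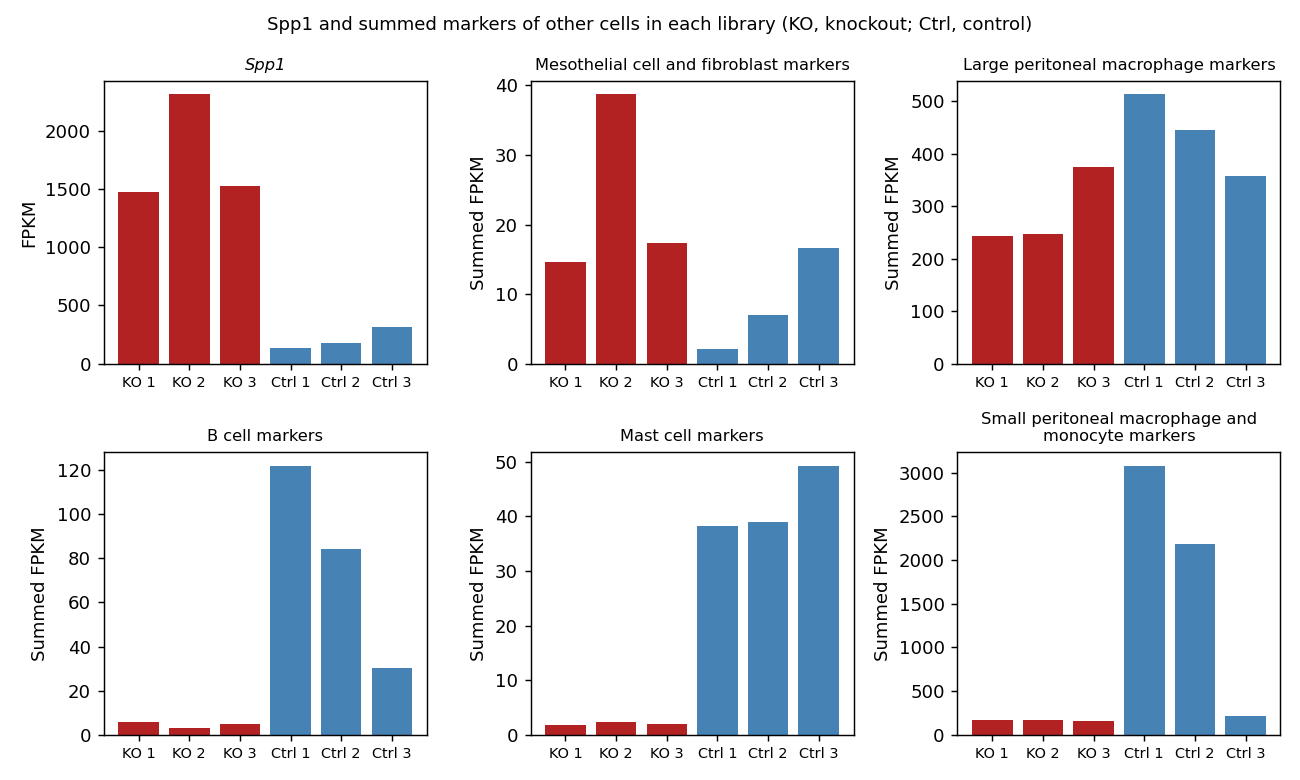
Level of Spp1 and summed levels of 5 marker lists in each library (KO, knockout; Ctrl, control), in FPKM on linear axes from 0. The sums for B cells, mast cells and small peritoneal macrophages (the last through Chil3) are lower in every knockout library than in every control library, and those of mesothelial cells and fibroblasts follow the order of Spp1 within each group, with control library 3 at 16.7 against 14.6 in knockout library 1.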

How the data were processed

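RNA-seq of PEMs was analysed in 3 libraries of LysM-Cre; Tim-4 fl/fl animals and 3 of Tim-4 fl/fl controls. The authors deposited FPKM per gene and library, and the signal columns the authors deposited are group means of read counts divided by DESeq2 size factors. The deposited fold changes, p-values and q-values of the authors' own comparison were not used, and the WikiPathways term was read from the same table. The submitters' processing notes name the build mm9; the aligner, the counting and the annotation are not given in the sources used here. The FPKM and group means together gave back whole reads, with 100% of values of 1 to 300 reads within 0.02 of a whole number in each library. The per-sample columns not used numbered 0.

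The main fit used limma 3.58.1 in R 4.3.3 (lmFit, then eBayes with its trend option) on log2(FPKM + 1) for the 9030 genes that averaged at least 1 FPKM in either group, with Benjamini-Hochberg adjustment over all of them and a threshold of 0.05. In all, 232 genes were higher and 428 lower in the knockout; after rescaling by the median of ratios 342 were higher and 320 lower. A fold change on this scale understates the change of low genes. The labels do not say whether libraries came from separate animals, so p-values measure only the spread between these libraries. A two-sided exact permutation test of 3 against 3 cannot go below 0.1, so none was used.

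The 10 genes and all gene lists were chosen with earlier results of these data known. The genes named are the members, the genes of each list past the threshold, the best-known members of each list, and the 10 genes nearest to Spp1 by root mean square distance. The other list genes enter the counts and medians only, and some items are not reported here. In their deviations from the group means, libraries with the same replicate number had r = 0.109, 0.109 and 0.304 for numbers 1, 2 and 3. Libraries with different numbers had r of -0.332 to 0.291, the highest for knockout library 2 with control library 1. These ranges overlapped, so the check does not show that libraries were paired. A fit with the number as a block was run only as an alternative. Other alternatives were no filter on low values, at least 10 reads in every library, a pseudocount of 0.1, rescaling, voom on the recovered reads, and each library left out in turn. The fits were also run on simulated reads with planted changes. There every library had the same spread and none stood apart, so that run does not bear on how calls depend on a single library.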

Additional observations from a re-analysis of the deposited data

How the results depend on the processing

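The log2 differences of the 10 genes kept their direction under every alternative. Counting each gene in each alternative fit, 17 values lost the threshold, 1 gained it and 102 stayed on their side. Leaving out a library moved the number of members past the threshold between 0 and 8, of other lipid-associated macrophage genes between 0 and 15, of other osteoclast genes between 0 and 6, of osteopontin receptors between 0 and 2, of TREM2 and TYROBP signalling genes between 0 and 5, and of apolipoprotein E receptor and cholesterol efflux genes between 0 and 8. Control library 2 had a large effect: without it 8 of all genes passed, against 660 with all libraries, 30 without knockout library 1 and 63 without knockout library 2, so a call lost there was lost with nearly all others; the cause was not tested. Without control library 3 there were 1333. With the replicate block, 855 genes passed, and the TREM2 and TYROBP signalling count was 3 in place of 1. The block fit left 7 members past the threshold and moved other counts by over 1.5 times. These were the counts for the galectins (Lgals1 was lost) and for the markers of mesothelial cells and fibroblasts. The others were those of small peritoneal macrophages and monocytes (4 in place of 2) and of neutrophils (2 in place of 1). The block fit also lost Ctsb, Pld3 and Kit. Rescaling made the TREM2 and TYROBP count 2. When no filter was set, the total was 446, with 2 among the other lipid-associated macrophage genes and 2 among those of apolipoprotein E receptors and cholesterol efflux. With at least 10 reads in every library, 2 osteopontin receptors passed (Itgb5 and Itgb3). Every member had at least 2822 reads in every library, so depth does not limit their values. Calls of other genes moved with the filter, those of low genes and of abundant genes alike. When no filter was set, Ctsb (adjusted p = 0.13 in limma), Lgals1 (0.0792), Pld3 (0.0739) and Npc2 (0.0511) lost their calls.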
